A study of Sus scrofa with 18 samples.

Results

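The 9 genes described here write, erase or read DNA methylation: DNMT1, UHRF1, DNMT3A, DNMT3B, TET1, TET2, TET3, MBD1 and MBD2. They were taken by symbol from a table of read counts for 31908 pig genes, and all 9 were found, once each. All 9 passed the filter on low counts, which kept 17003 genes for comparisons of litters and 16325 for comparisons of single libraries.

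The study sequenced poly(A)-enriched RNA from the whole brain of pig fetuses at gestation days (GD) 45, 60 and 90, since the pig brain grows fast from about GD60. Each gestation day had 3 female and 3 male fetuses, so 18 libraries fell into 6 groups of sex and day. All dams were Landrace x Large White gilts inseminated with LR-M6 semen, none of the groups received a treatment, and each brain gave 1 library. The male and female with the same day and litter size were taken as littermates, which gave 3 litters a day, since the labels do not name the dam.

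DNA methylation is the addition of a methyl group to cytosine, mostly where a guanine follows. DNMT3A and DNMT3B place new marks, DNMT1 copies them to the daughter strand after replication, and UHRF1 brings DNMT1 to such half-marked sites, which links both to dividing cells. TET enzymes oxidise the mark, a step towards its removal, and MBD proteins bind methylated DNA and recruit repressor complexes. In the brain DNMT3A and TET3 are known for their roles in neurons, and the balance of writers is known to shift as progenitors stop dividing.

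Library totals ran from 15118843 to 19729783 counts (median 16413097), and a member had between 30 counts (TET2 in male GD45 replicate 17) and 3083 counts (DNMT1). Levels are given as CPM, the counts of a gene scaled to a common library total, and levels of different genes are compared only per length, as TPM, which also divides by the counted length. Male GD45 replicate 17 stood apart from the other libraries. The labels give brain weights of 0.7135 for it and 0.6653 for its sister, female GD45 replicate 18. The other GD45 brains have 1.55 to 1.86, and whether brain weight bears on the members was not tested. The normalization factor of replicate 17 was 0.849 against 0.943 to 1.07 in the others. Its log2 CPM declined most with gene length, by a slope of -0.19 per doubling of length. The same slope was between -0.07 and 0.07 in all other libraries except the 3 males at GD90, at 0.08, 0.10 and 0.12. The members' counted lengths were 4340 to 12953 bases, against a median of 4340.5 bases over 14622 genes with a mean of at least 1 CPM, so the members are mostly long genes. Where it moved a call, a result is also given without that library or after the dependence on gene length was taken out of each library (the length trend removed).

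Per length, DNMT1 was the highest member at each gestation day, with 78.5 TPM ± 8.63 at GD45, 75.1 ± 10.2 at GD60 and 55.7 ± 1.99 at GD90 (SD, n = 3 litter means). UHRF1 was next at GD45, at 69.6 TPM ± 13.0, and the litter means of these 2 genes overlapped. At GD60 UHRF1 was the third, at 27.1 TPM ± 9.46, and at GD90 the fifth, at 13.4 ± 1.03. DNMT3A was the third at GD45 (34.3 TPM ± 3.2 SD) and the second at both later days. MBD1 and TET3 overlapped at every day, at 20.9 and 18.4 TPM at GD45 and at 20.3 and 20.7 TPM at GD90. The lowest member was TET2 at GD45 (3.81 TPM ± 1.52) and DNMT3B at GD90 (2.21 ± 0.28). TET1, TET2 and DNMT3B were the 3 lowest at every day, and at GD45 and GD60 each of them overlapped with its neighbour in this order.

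**Figure D1:**
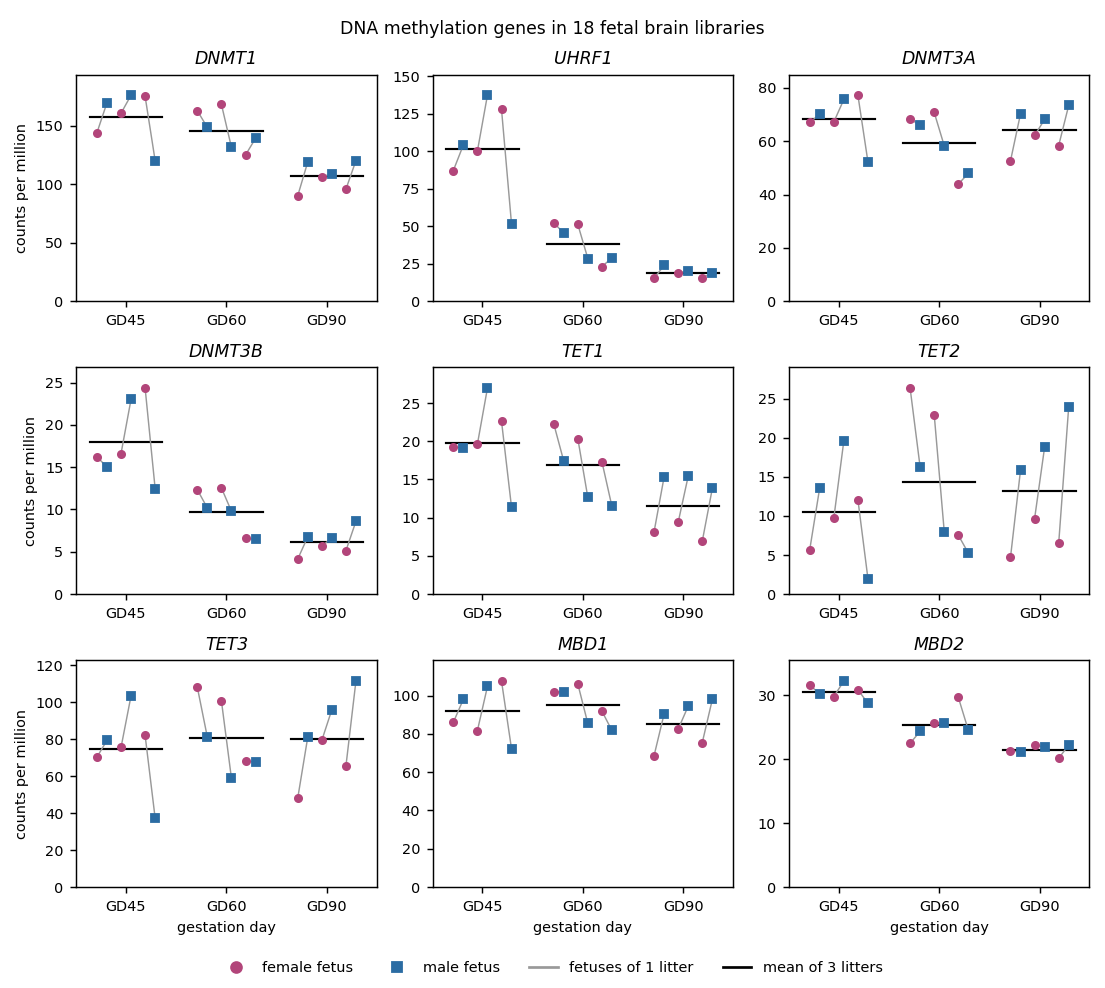
Each panel plots 1 gene, with CPM on a vertical axis that starts at 0 and gestation day on the horizontal axis. Circles are female and squares male fetuses, grey lines join fetuses of 1 litter and black bars are means of 3 litters. UHRF1 and DNMT3B stood lower at each later day, while TET2 ran from 1.98 to 19.6 CPM within GD45 alone.

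UHRF1 fell most of the 9 members, by 81.1% from GD45 to GD90, and DNMT3B fell in both periods as well. DNMT1 and TET1 fell from GD60 to GD90, and MBD2 fell over the whole span from GD45 to GD90. No member rose between gestation days, also at an unadjusted p under 0.05. DNMT3A, TET2, TET3 and MBD1 did not pass the test in any comparison of litters. The test was edgeR's quasi-likelihood F test on the counts of littermates added together, with 3 litters per day and Benjamini-Hochberg adjustment over all 17003 genes.

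From GD45 to GD60, 2 of 9 members passed the test and both were lower, where 11.6% of all genes tested were called, 6.75% higher and 4.86% lower. From GD60 to GD90, 4 of 9 were lower, against 37.4% of all genes called, 18.7% higher and 18.7% lower. From GD45 to GD90, 5 of 9 were lower, against 53.3% called, 26.5% higher and 26.8% lower. The members' median log2 fold change was -0.21, -0.23 and -0.48 in these comparisons, and that of all genes was 0.00, -0.02 and -0.02. The first 2 comparisons share the GD60 litters, so their values are not independent. With the length trend removed MBD1 also passed, at a log2 fold change of -0.23 from GD60 to GD90 (adjusted p = 0.0445, edgeR) and -0.30 from GD45 to GD90 (adjusted p = 0.00940, edgeR).

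**Figure D2:**
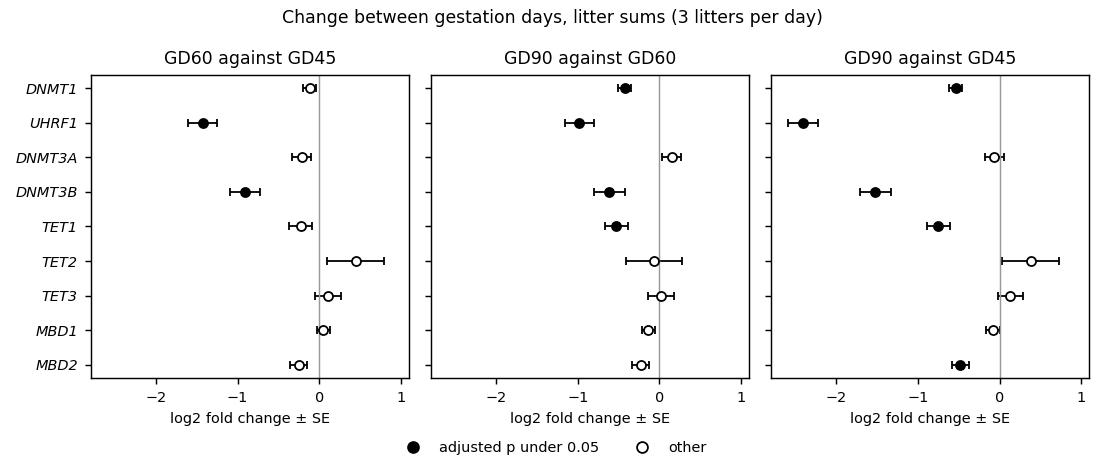
Log2 fold changes (horizontal axis) of the 9 members between gestation days from sums of littermates, with 3 litters per day. Bars are standard errors, and filled points have an adjusted p under 0.05 in edgeR's quasi-likelihood F test. UHRF1 and DNMT3B are filled and left of 0 in all 3 panels.

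UHRF1 (ENSSSCG00000013517, chromosome 2, 73898085 to 73935682, minus strand of Sscrofa11.1) recognises half-methylated sites behind the replication fork. At GD45 it had 87.1, 100.1 and 128 CPM in females and 104.1, 137 and 51.2 CPM in males. At GD60 it had 52.4, 51.2 and 23.0 CPM in females and 45.2, 28.4 and 28.9 CPM in males. At GD90 it had 15.4, 18.7 and 15.6 CPM in females and 23.8, 20.3 and 18.7 CPM in males. All 6 GD90 libraries lay below all 6 GD45 libraries, as did those of DNMT3B and MBD2. Of genes with a mean of at least 1 CPM, 18.0% were lower and 17.5% higher in this way. No member separated GD45 from GD60 so, where 4.03% of genes were lower and 4.71% higher. The days next to each other overlapped, since male GD45 replicate 17 had 51.2 CPM and female GD60 replicate 15 had 23.0 CPM. The log2 fold change was -1.43 ± 0.18 (SE) from GD45 to GD60 (adjusted p = 8.86e-04, edgeR). It was -0.98 ± 0.18 from GD60 to GD90 (adjusted p = 0.00154, edgeR) and -2.41 ± 0.18 over the whole span (adjusted p = 1.61e-06, edgeR). A gene on the other strand, ARRDC5, shares 153 exonic bases with UHRF1, and it had at most 1 count in any library.

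DNMT1 (ENSSSCG00000013659, chromosome 2, 68981564 to 69029919, minus strand) is the maintenance methyltransferase. Its levels at GD45 were 144, 160.5 and 175 CPM in females and 169, 176 and 119.97 CPM in males. At GD60 they were 163, 168 and 125 CPM in females and 148, 131 and 139 CPM in males. At GD90 they were 89.9, 106 and 95.6 CPM in females and 119, 109 and 120.05 CPM in males. All 6 GD90 libraries were below all 6 GD60 libraries in CPM, as were those of 13.9% of genes with a mean of at least 1 CPM (12.4% were higher in this way). MBD2 also showed this, but narrowly, at 22.3 against 22.5 CPM. The lone GD45 library at the GD90 level was male replicate 17, in CPM that leave out its normalization factor of 0.849. From GD45 to GD60 the log2 fold change was -0.11 ± 0.08 (adjusted p = 0.401, edgeR), and from GD60 to GD90 DNMT1 fell by 0.42 ± 0.08 on the log2 scale (adjusted p = 0.00199, edgeR).

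Both maintenance genes thus fell, but by unlike amounts. Within a library there were 1.62 reads of DNMT1 for each read of UHRF1 at GD45 (median of 6 libraries, 1.28 to 2.34), 3.95 at GD60 (3.10 to 5.44) and 5.76 at GD90 (5.00 to 6.44). The ratios of GD45 did not overlap those of either later day. This ratio needs no scaling between libraries, but it can keep a length trend, since the counted lengths are 5923 and 4340 bases. How many pairs of genes separate the days so was not computed, and the difference between the genes' fold changes was not tested.

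DNMT3A (ENSSSCG00000029413, chromosome 3, 113528926 to 113609139, plus strand) and DNMT3B (ENSSSCG00000007252, chromosome 17, 36332801 to 36386074, plus strand) are the de novo methyltransferases. DNMT3A had 67.1, 67.2 and 77.3 CPM in GD45 females and 70.1, 75.7 and 52.3 CPM in GD45 males. It had 68.4, 70.8 and 43.9 CPM in GD60 females, 66.0, 58.3 and 47.9 CPM in GD60 males, 52.6, 62.2 and 58.4 CPM in GD90 females and 70.3, 68.2 and 73.5 CPM in GD90 males. The 3 days overlapped, and the 2 lowest values were both from the GD60 litter of size 8. The log2 fold change was -0.21 ± 0.11 from GD45 to GD60 (adjusted p = 0.259, edgeR) and 0.15 ± 0.11 from GD60 to GD90 (adjusted p = 0.331, edgeR).

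DNMT3B, best known from early embryos and stem cells, took another course. It had 16.2, 16.6 and 24.4 CPM in GD45 females and 15.0, 23.0 and 12.5 CPM in GD45 males. At GD60 it had 12.3, 12.6 and 6.59 CPM in females and 10.2, 9.79 and 6.46 CPM in males, and at GD90 it had 4.14, 5.67 and 5.12 CPM in females and 6.76, 6.64 and 8.60 CPM in males. All GD90 libraries were below all GD45 libraries. DNMT3B fell by 0.91 ± 0.19 on the log2 scale from GD45 to GD60 (adjusted p = 0.00997, edgeR) and by 0.61 ± 0.19 from GD60 to GD90 (adjusted p = 0.0255, edgeR). Without female GD45 replicate 18, the highest library, the adjusted p was 0.0615 and 0.0582 (edgeR), and without female GD90 replicate 9 the second was 0.0904. The reads of DNMT3A per read of DNMT3B had a median of 4.09 at GD45 (3.17 to 4.67), 6.22 at GD60 (5.54 to 7.42) and 10.7 at GD90 (8.55 to 12.7). The 3 days did not overlap, and how many pairs of genes separate them so was not computed.

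Genes of DNA replication and the cell cycle fell in the same periods. Of 17 such genes measured from a list of 20, 16 fell from GD45 to GD60, 14 from GD60 to GD90 and 17 over the whole span, and none rose. Their median log2 fold change was -0.98, -0.90 and -1.79 in these comparisons. TOP2A, the topoisomerase of dividing cells, fell by 1.37 ± 0.18 on the log2 scale from GD45 to GD60 (adjusted p = 0.00116, edgeR). MCM7, a subunit of the replicative helicase, fell by 1.19 ± 0.12 from GD60 to GD90 (adjusted p = 2.79e-05, edgeR). The sum of the list was 1157 to 1311 CPM at GD45, 665 to 759 CPM at GD60 and 404 to 480 CPM at GD90.

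**Figure D3:**
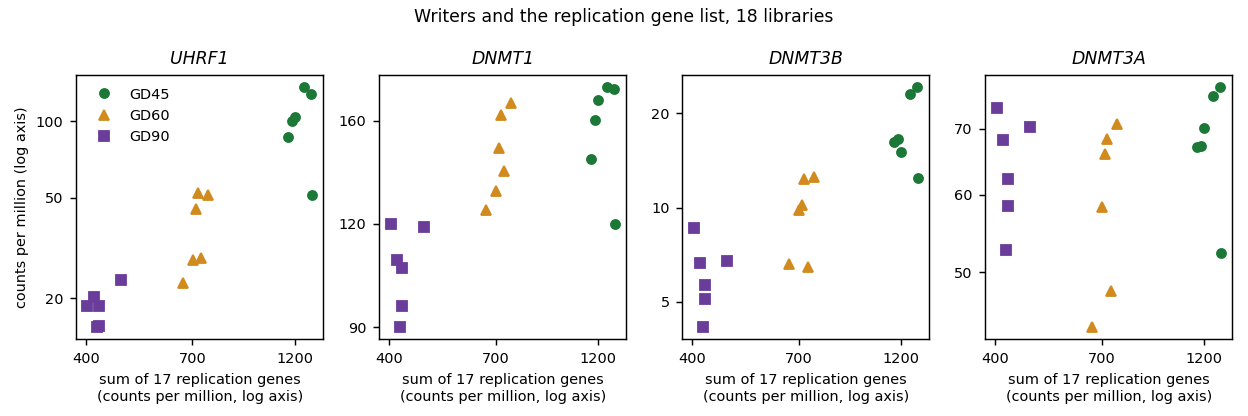
CPM of 4 writers (vertical log axes) against the summed CPM of 17 replication genes (horizontal log axis) in 18 libraries, with a colour and shape for each gestation day. UHRF1 and DNMT3B are low where the sum is low, DNMT3A is not, and 1 GD45 library lies below the others of its day in each panel.

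Male GD45 replicate 17 was the exception among the libraries. It had 51.2 CPM of UHRF1, the lowest of GD45, with a summed replication list at the top of the GD45 range. Over the 18 libraries the genes with a log2 CPM most like UHRF1 were TOP2A (Pearson r = 0.997), GATAD2A, a NuRD subunit (r = 0.981), and KIF23, a cytokinesis motor (r = 0.976). For DNMT3B they were DCC, a netrin receptor (r = 0.965), CDCA7L (r = 0.959) and DEPDC1 (r = 0.955). For DNMT1 they were AGO1 (r = 0.978), GTF3C4 (r = 0.976) and SOX11, a factor of immature neurons (r = 0.975), and for DNMT3A CCDC12, PLEKHA7 and SAMD4A (r = 0.889 to 0.901). These values are descriptions over 18 libraries that share 3 gestation days and the length trend described above. Among the members, UHRF1 and DNMT3B were most alike (r = 0.955).

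Of 12 other genes of maintenance methylation measured, 5 fell from GD45 to GD60, 10 fell from GD60 to GD90, and over the whole span 11 fell and 1 rose. CDCA7, which brings the remodeller HELLS to chromatin, fell by 1.05 ± 0.12 on the log2 scale from GD45 to GD60 (adjusted p = 6.65e-04, edgeR) and by 1.01 ± 0.12 from GD60 to GD90 (adjusted p = 1.30e-04, edgeR). HELLS itself fell by 1.05 ± 0.18 from GD60 to GD90 (adjusted p = 9.95e-04, edgeR), and PCNA, the sliding clamp of replication, by 1.00 ± 0.10 from GD45 to GD60 (adjusted p = 4.31e-04, edgeR). The one that rose from GD45 to GD90 was ZFP57, which guards methylation at imprinted genes (log2 fold change 1.45 ± 0.49, adjusted p = 0.0272, edgeR, at a mean of 1.93 CPM).

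Markers of brain cell types moved between the same days, and their part in the members' changes was not tested. In bulk tissue fewer cells of a type and less RNA per cell cannot be told apart. Of 8 markers of radial glia and intermediate progenitors measured, 6 fell in each period and 8 over the whole span. Their summed level was 1939 to 2908 CPM at GD45, 1405 to 1809 at GD60 and 972 to 1311 at GD90. EOMES and NEUROG2, which mark intermediate progenitors, fell by 3.47 ± 0.49 and 4.07 ± 0.30 on the log2 scale from GD60 to GD90 (adjusted p = 3.15e-04 and 5.18e-06, edgeR). Of 10 neuron markers 5 rose from GD45 to GD60, 8 from GD60 to GD90 and all 10 over the whole span, with a summed level of 2536 to 3924 CPM at GD45 and 7728 to 8358 CPM at GD90. Of 9 oligodendrocyte markers 4 and then 9 rose, from 166 to 280 CPM in sum at GD45 to 2327 to 3776 CPM at GD90, and of 6 astrocyte markers 2 and then 5 rose, from 187 to 399 CPM to 1627 to 2174 CPM. Of 7 microglia markers 1 and then 6 rose, of 6 endothelial markers 0 (1 at an unadjusted p under 0.05, edgeR) and then 2 rose, and of 5 erythroid markers 2 and then 2 fell. No gene of these lists that was in the table was at 0 in any library.

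The erasers did not move together. TET1 (ENSSSCG00000010241, chromosome 14, 71675671 to 71815621, plus strand), which binds CpG-rich DNA, had 19.3, 19.6 and 22.6 CPM in GD45 females and 19.1, 27.0 and 11.3 CPM in GD45 males. At GD60 it had 22.3, 20.3 and 17.3 CPM in females and 17.4, 12.6 and 11.5 CPM in males. At GD90 it had 8.17, 9.40 and 6.93 CPM in females and 15.3, 15.4 and 13.8 CPM in males. The females of GD90 were below every other library, and the males of GD90 lay inside the range of the males of GD60. How many of all genes set the GD90 females apart in this way was not computed. TET1 fell by 0.53 ± 0.14 on the log2 scale from GD60 to GD90 (adjusted p = 0.0131, edgeR) and by 0.75 ± 0.14 over the whole span (adjusted p = 0.00101, edgeR). The call from GD60 to GD90 was lost when female GD45 replicate 18, female GD60 replicate 5 or 15, or female GD90 replicate 2 or 7 was left out (adjusted p = 0.0597 to 0.0778, edgeR).

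TET3 (ENSSSCG00000008292, chromosome 3, 68918933 to 69020986, minus strand) was the highest TET gene per length. It had 70.3, 75.5 and 82.0 CPM in GD45 females, 79.3, 103.5 and 37.2 CPM in GD45 males, 108, 101 and 68.4 CPM in GD60 females and 81.1, 58.8 and 67.4 CPM in GD60 males. At GD90 it had 48.0, 79.3 and 65.3 CPM in females and 81.1, 95.9 and 111 CPM in males. The ranges of all 3 days overlapped, and the log2 fold change was 0.11 ± 0.16 and 0.02 ± 0.16 in the 2 periods (adjusted p = 0.711 and 0.926, edgeR). TET3 per length was above TET1 in mean at each day, at 20.7 against 3.84 TPM at GD90.

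TET2 (ENSSSCG00000009157, chromosome 8, 116415267 to 116545299, minus strand) varied most between libraries. It had 5.67, 9.72 and 12.1 CPM in GD45 females and 13.6, 19.6 and 1.98 CPM in GD45 males. At GD60 it had 26.4, 23.0 and 7.55 CPM in females and 16.3, 8.01 and 5.25 CPM in males, and at GD90 it had 4.71, 9.66 and 6.48 CPM in females and 15.9, 18.8 and 24.01 CPM in males. The spread within a day was larger than any difference between days, at log2 fold changes of 0.45 ± 0.35 and -0.07 ± 0.34 (adjusted p = 0.454 and 0.898, edgeR).

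TET2 and TET3 went with each library's slope of log2 CPM on gene length (Pearson r = 0.914 and 0.911, 18 libraries). MBD1 (r = 0.667), DNMT3A (r = 0.571) and TET1 (r = 0.332) did so less closely. The other members had an r of -0.37 (MBD2) to 0.10 (DNMT1). Male GD45 replicate 17, with the lowest slope, had the lowest TET2 and TET3 of all 18 libraries. Male GD90 replicate 10, with the highest slope, had the highest TET3 and the second-highest TET2. Female GD60 replicate 3, with the highest slope of its day, had the highest TET2 of all. The counted lengths of the TET genes were 9377 bases (TET1), 8306 (TET2) and 12085 (TET3).

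**Figure D4:**
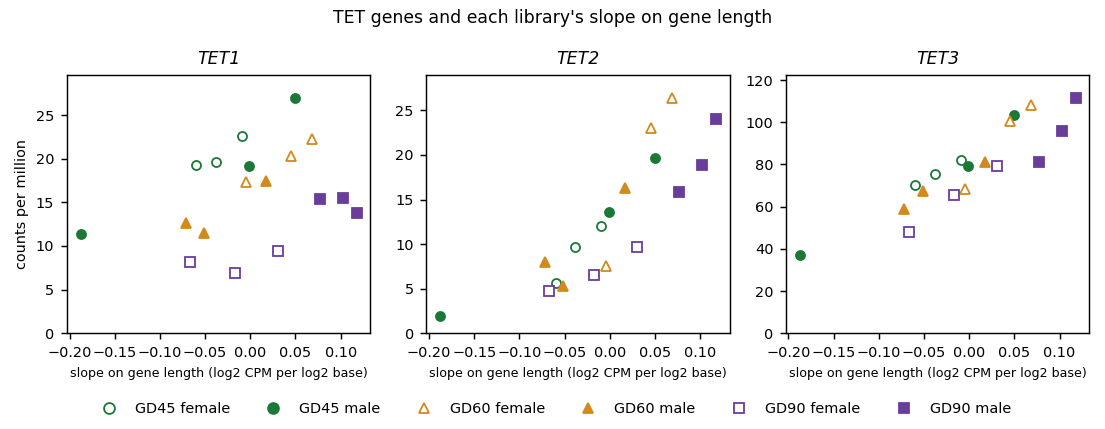
CPM of TET1, TET2 and TET3 (vertical axes from 0) against the slope of each library's log2 CPM on log2 gene length (horizontal axis), with open symbols for females, filled symbols for males and a colour and shape for each day. TET2 and TET3 go from the lower left (male GD45 replicate 17, slope -0.19) to the upper right (GD90 males, slopes 0.08 to 0.12), and TET1 is lowest in the GD90 females.

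Over the 18 libraries the genes most like TET2 were ASH1L, a histone methyltransferase (Pearson r = 0.977, 11715 bases), NR2C2 (r = 0.975, 9523 bases) and SETBP1 (r = 0.974, 6243 bases). Those most like TET3 were NIN (r = 0.959, 16094 bases), ACER2 (r = 0.956, 2539 bases) and UBR2 (r = 0.954, 12054 bases), and those most like TET1 were ZMYM4, ROBO1 and PBRM1 (r = 0.947 to 0.949, 7474 to 8573 bases). TET2 and TET3 had a Pearson r of 0.928 with each other, against 0.481 and 0.472 with TET1.

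Of 13 partners of active demethylation measured, 2 fell from GD45 to GD60, 6 from GD60 to GD90 and 8 over the whole span, and none rose. GADD45G, a stress and differentiation gene linked to demethylation, fell by 0.99 ± 0.21 on the log2 scale in the first period (adjusted p = 0.0110, edgeR) and by 1.37 ± 0.21 in the second (adjusted p = 5.84e-04, edgeR). GADD45A fell by 0.82 ± 0.16 from GD45 to GD60 (adjusted p = 0.00806, edgeR), and XRCC1, a scaffold of base excision repair, by 0.74 ± 0.15 from GD60 to GD90 (adjusted p = 0.00311, edgeR).

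The readers are proteins that bind the mark. MBD1 (ENSSSCG00000004516, chromosome 1, 99848184 to 99917328, minus strand) had 86.0, 81.7 and 108 CPM in GD45 females and 98.1, 105 and 72.1 CPM in GD45 males. It had 102, 106 and 91.9 CPM in GD60 females, 102, 85.4 and 81.8 CPM in GD60 males, 68.7, 82.5 and 75.5 CPM in GD90 females and 90.5, 94.5 and 98.0 CPM in GD90 males. The 3 days overlapped, with log2 fold changes of 0.05 ± 0.08 and -0.14 ± 0.08 in the 2 periods (adjusted p = 0.741 and 0.225, edgeR). The genes most like it were OGT, the enzyme that adds O-GlcNAc and a partner of TET proteins (Pearson r = 0.925, 18 libraries), PRPF4B (r = 0.905) and SREK1 (r = 0.904).

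MBD2 (ENSSSCG00000004528, chromosome 1, 103683065 to 103752427, minus strand), tethers the NuRD complex to methylated DNA. It had 31.6, 29.8 and 30.9 CPM in GD45 females, 30.2, 32.2 and 28.7 CPM in GD45 males, 22.5, 25.7 and 29.7 CPM in GD60 females and 24.4, 25.7 and 24.6 CPM in GD60 males. At GD90 it had 21.3, 22.3 and 20.1 CPM in females and 21.2, 21.8 and 22.2 CPM in males. In CPM these were below every library of both earlier days, but narrowly so for GD60, at 22.3 against 22.5. CPM leave out the normalization factors, which were 0.972 (female GD90 replicate 7) and 1.05 (female GD60 replicate 3) in these libraries. The separation from GD60 therefore depends on the scaling. MBD2 fell by 0.48 ± 0.11 on the log2 scale from GD45 to GD90 (adjusted p = 0.00284, edgeR). The 2 steps on the way, -0.25 ± 0.11 and -0.23 ± 0.11, did not pass (adjusted p = 0.154 and 0.113, edgeR). In CPM, male GD45 replicate 17 was the lowest GD45 library for all 9 members. CPM leave out its normalization factor of 0.849, against 1.02 to 1.07 in the other GD45 libraries. Where the gap to the next GD45 library is narrow, as for MBD2 (28.7 against 29.8 CPM), this order therefore depends on the scaling. The gap was wider for UHRF1 (51.2 against 87.1 CPM), TET1 (11.3 against 19.1), TET2 (1.98 against 5.67) and TET3 (37.2 against 70.3). Factors of this size do not reverse the order for these genes. The genes most like MBD2 were NAP1L1 (r = 0.952), VPS26A (r = 0.944) and CYB5R4 (r = 0.936).

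The exon table separates transcripts of MBD2. ENSSSCT00000005002 is the long transcript with 7 exons, and ENSSSCT00000090999, here the short transcript, ends in an exon of its own of 458 bases (chromosome 1, 103735759 to 103736216) that follows the same exon (103738009 to 103738168) from which the long transcript goes on to the third of its exons (103719770 to 103719907). The junctions are shown because the exon that follows decides where translation ends. The last 24 bases of the shared exon are in lower case and the first 24 bases of the exon that follows are in capitals, from the RefSeq sequence of Sscrofa11.1, 5′ to 3′ on the minus strand.
MBD2, long transcript: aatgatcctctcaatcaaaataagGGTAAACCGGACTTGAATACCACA
MBD2, short transcript: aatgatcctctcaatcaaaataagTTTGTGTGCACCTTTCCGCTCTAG
In the reading frame that RefSeq gives the shared exon, the exon of the short transcript reaches the stop codon TAG at its base 22, and that of the long transcript has none. In people a transcript that ends early in this way, MBD2c, is known from pluripotent stem cells and encodes a protein without the end of MBD2.

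No member passed the test of exon usage, which asks whether an exon changes unlike the rest of its gene (edgeR, 88318 exons of 12005 genes, 9 litter sums). From GD45 to GD60 0.0666% of genes were called, and from GD60 to GD90 0.55%. At an unadjusted p under 0.05 there were 2 members in the first period (DNMT3B and MBD2) and 1 in the second (TET1), and no other tool was run. MBD2 had the lowest p of the members for the first period (unadjusted p = 9.95e-04, adjusted p = 0.341, edgeR), and its exon was chosen for description after its values were seen. The last exon of the short transcript had 162 counts at GD45, 54 at GD60 and 27 at GD90 over the 6 libraries of a day, while the third exon of the long transcript had 53, 53 and 65 counts. As a share of all MBD2 exon counts it was 8.54%, 7.14% and 9.73% in GD45 females and 8.15%, 3.70% and 15.0% in GD45 males. The share was 2.70%, 2.08% and 2.87% in GD60 females, 1.47%, 2.75% and 6.60% in GD60 males, 0.687%, 0.784% and 2.53% in GD90 females and 2.17%, 2.87% and 1.24% in GD90 males. All 6 GD90 libraries were below all 6 GD45 libraries, and the highest share was again in male GD45 replicate 17. How many exons of all genes separate these days in this way was not computed. The GD90 shares rest on 2 to 8 counts a library.

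The log2 difference in usage of this exon was -1.02 from GD45 to GD60 (unadjusted p = 1.42e-04, adjusted p = 0.163 over all exons, edgeR). From GD60 to GD90 it was -0.60 (unadjusted p = 0.0545, adjusted p = 0.971, edgeR). The call for MBD2 passed when the GD60 litter of size 8 was left out (adjusted p = 0.0200, edgeR). In that fit 0.976% of 12394 genes were called, against 0.0666% with all litters. MBD2 was far from passing without the GD45 litter of size 8, which holds replicate 17 (adjusted p = 1.00, edgeR). In the transcript table the short transcript had 146, 43 and 19 counts at the 3 days and the long transcript 1830, 1831 and 1663. The other annotated transcript of MBD2 has 2 exons inside the same 458 bases and had 0 counts at each day. How reads in overlapping exons were counted is not given in the sources used here, so neither this 0 nor the level of the short transcript can be taken as complete. Whether reads of the unspliced intron add to the exon was not tested.

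**Figure D5:**
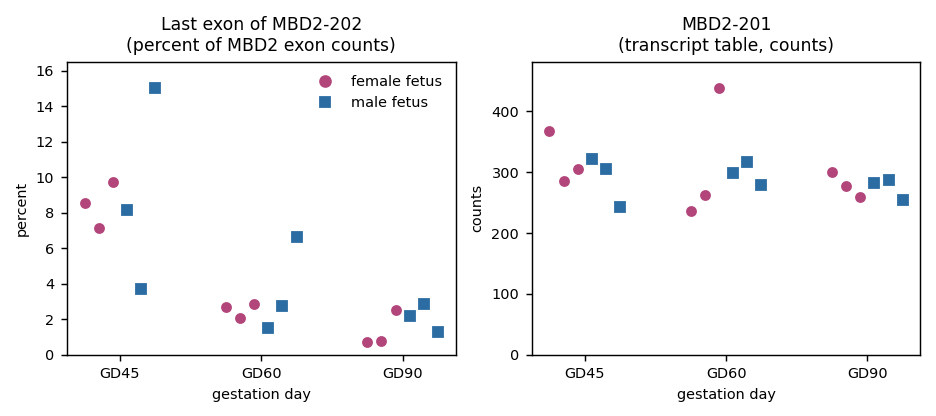
Left, the last exon of the short MBD2 transcript as a percent of all MBD2 exon counts in each of 18 libraries, and right, counts of the long transcript in the transcript table, both by gestation day with axes from 0 (circles female, squares male). The exon's share lies between 3.70 and 15.0% at GD45 and between 0.687 and 2.87% at GD90, while the long transcript's counts overlap between the days.

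A further list held methyl-CpG readers and relatives of them, such as MBD3 and MBD6, that need not bind the mark. Of 8 such genes measured, 0 passed edgeR's test from GD45 to GD60 (1 at an unadjusted p under 0.05, with a median log2 fold change of -0.18). From GD60 to GD90 4 fell, and over the whole span 5. MBD4, a glycosylase that repairs mismatches at methylated sites, fell by 0.64 ± 0.11 on the log2 scale from GD60 to GD90 (adjusted p = 9.47e-04, edgeR), and MBD3, the NuRD subunit related to MBD2, by 0.52 ± 0.14 (adjusted p = 0.0143, edgeR). Of 12 NuRD genes measured, 2 rose and 4 fell in the first period and 7 fell in the second. CHD5, the neuronal helicase of NuRD, rose by 0.84 ± 0.14 and MTA3 by 0.47 ± 0.09 from GD45 to GD60 (adjusted p = 0.00349 and 0.00805, edgeR). HDAC2 fell by 0.57 ± 0.09 and then by 0.84 ± 0.09 (adjusted p = 0.00282 and 5.67e-05, edgeR), CDK2AP1 fell by 0.67 ± 0.14 in the first period, and MTA2 fell by 1.04 ± 0.12 in the second (adjusted p = 0.00956 and 8.42e-05, edgeR). Of 11 genes of the methyl donor cycle and relatives of such genes, 1 fell in the first period (MTHFD1, by 0.34 ± 0.09, adjusted p = 0.0318, edgeR). In the second 2 rose and 2 fell. Those that rose were AHCYL1 and AHCYL2, counted here as relatives and not as enzymes of the cycle, by 0.61 ± 0.09 and 0.73 ± 0.14 (adjusted p = 3.59e-04 and 0.00209, edgeR). SHMT2, which feeds one-carbon units into the cycle, fell by 0.48 ± 0.17 (adjusted p = 0.0489, edgeR).

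Within each sex the days were compared in a fit of all 18 libraries. From GD45 to GD60 UHRF1 and DNMT3B fell in females (log2 fold change -1.31 ± 0.28 and -0.85 ± 0.24, adjusted p = 0.00909 and 0.0427, edgeR) and in males (-1.51 ± 0.28 and -0.95 ± 0.24, adjusted p = 0.00413 and 0.0290, edgeR), where 7.22% of 16325 genes were called in females (4.34% higher, 2.88% lower) and 5.61% in males (3.08% higher, 2.53% lower). UHRF1 alone was left, with DNMT3B lost, when any female of GD45 or GD60, male GD60 replicate 6, female GD90 replicate 9 or any male of GD90 was omitted from the fit for females. The same held for males when male GD45 replicate 14 or any male of GD60 was omitted. From GD60 to GD90, 5 of 9 members fell in females, against 27.1% of genes called (13.7% higher, 13.4% lower), namely DNMT1, UHRF1, DNMT3B, TET1 and MBD1. TET1 fell by 56.5% in females (adjusted p = 3.70e-04, edgeR) and had a log2 fold change of 0.09 ± 0.20 in males (adjusted p = 0.743, edgeR). The MBD1 call in females (-0.32 ± 0.11, adjusted p = 0.0425, edgeR) was lost with the length trend removed (adjusted p = 0.198).

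In males 0 of 9 members passed from GD60 to GD90, against 34.5% of genes called (18.5% higher, 16.0% lower, edgeR). At an unadjusted p under 0.05 there were 2, DNMT1 and UHRF1, which were also called by DESeq2, and the likelihood ratio test called UHRF1 alone. Their log2 fold changes were -0.29 ± 0.11 and -0.72 ± 0.28 (adjusted p = 0.0558 and 0.0582, edgeR). With the length trend removed 5 members were lower, which were DNMT1, UHRF1, DNMT3B, MBD1 and MBD2, where 36.9% of all genes were called, and MBD1 changed sign from 0.06 to -0.27. With only the 6 GD60 and GD90 males in the fit 4 passed, DNMT1 and UHRF1 lower and TET2 and TET3 higher, a share close to the 47.4% of all genes called there. Without male GD45 replicate 17 there were 3 (DNMT1, UHRF1 and TET3), where 44.3% of all genes were called, and without female GD60 replicate 15 there were 3 (DNMT1, DNMT3A and UHRF1), where 35.9% were called.

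Males and females were compared at each gestation day, and 0 of 9 members passed at any day in edgeR, DESeq2 or the likelihood ratio test. Of all genes 0.0919% were called at GD45 (0.0735% higher in males, 0.0184% lower), 0.098% at GD60 (0.0796% higher, 0.0184% lower) and 0.098% at GD90 (0.0858% higher, 0.0123% lower). At an unadjusted p under 0.05 there were 0 members at GD45, 1 at GD60 (TET1) and 4 at GD90 (TET1, TET2, TET3 and MBD1). At GD90 the log2 difference of males over females was 0.81 ± 0.20 for TET1, 1.44 ± 0.57 for TET2 and 0.53 ± 0.24 for TET3 (adjusted p = 0.342, 0.350 and 0.358, edgeR). At GD60 they were -0.49 ± 0.20, -0.90 ± 0.55 and -0.37 ± 0.24 (adjusted p = 0.779 for each, edgeR). With the length trend removed the GD90 differences were 0.56, 1.22 and 0.24. With only the 6 GD90 libraries in the fit TET1 and TET2 passed (adjusted p = 0.0451 for both, edgeR), where 6.88% of genes were called.

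The test of whether the change from GD60 to GD90 differed between the sexes called 0 members and 0.00% of 16325 genes, while 19.8% of genes had an unadjusted p under 0.05. The difference was 1.29 ± 0.29 on the log2 scale for TET1, 2.34 ± 0.79 for TET2 and 0.90 ± 0.34 for TET3 (adjusted p = 0.175, 0.205 and 0.210, edgeR), so a difference between the sexes was not shown. TET1 passed in DESeq2 (adjusted p = 0.00779, 2.01% of genes called) and in the likelihood ratio test (adjusted p = 0.0205, 0.79% called). Without male GD45 replicate 17, which is no part of this contrast, TET1, TET2 and TET3 passed (adjusted p = 0.0180, 0.0243 and 0.0345, edgeR), where 13.3% of all genes passed. With the length trend removed the differences were 0.91, 1.99 and 0.43, and none passed (adjusted p = 0.248, 0.268 and 0.350, edgeR). For the change from GD45 to GD60 0 members and 0.00% of genes passed, with 0 members at an unadjusted p under 0.05 and 0 calls in DESeq2 and the likelihood ratio test.

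Littermates give the same values without a fit. TET1 in a male was 0.621 to 0.780 of its sister's CPM in the 3 litters of GD60 and 1.64 to 1.99 of it in those of GD90. TET2 was 0.348 to 0.695 of it at GD60 and 1.95 to 3.71 at GD90. TET3 was 0.583 to 0.985 of it at GD60 and 1.21 to 1.71 at GD90. Of genes with a mean of at least 1 CPM, 15.2% were likewise lower in every male than in his sister at GD60 and higher at GD90. In each of these litters the male's slope on gene length was also below his sister's at GD60 and above it at GD90.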

How the data were processed

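Total RNA of 18 fetal brains was enriched for mRNA with oligo(dT) beads and sequenced as paired-end reads. Per the labels and the study's methods, the authors trimmed reads with Trimmomatic, mapped them to Sscrofa11.1 by HISAT2 and assigned them by featureCounts to Ensembl genes, exons and transcripts. The authors deposited raw counts, with no normalization, and options for strand and shared reads are not given in the sources used here. The tables hold 22 columns, because 4 libraries have 2 runs, whose counts were added (chi-square per degree of freedom 1.61 to 1.67 between runs, 8.07 to 23.8 to the closest replicate).

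Counts were fitted here with edgeR 4.0.16 in R 4.3.3 (filterByExpr, TMM, glmQLFit, glmQLFTest, Benjamini-Hochberg over all genes tested, threshold 0.05). Sums of littermates served for days, all 18 libraries in 6 groups for sexes, and diffSpliceDGE for exon usage. Fold changes use TMM factors, while printed CPM and TPM use library totals. Log2 CPM used a prior count of 2. The p-values cover the spread between fetuses or litters. DESeq2 1.42.0 and the other alternatives appear at the end. Each test was first tried on simulated data.

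The members and gene lists were chosen with earlier results of these data known. The genes named are all members, for each list and comparison of days up to 2 that rose and 2 that fell most among those with an adjusted p under 0.05 and a mean of at least 1 CPM, and the 3 genes most like each member. The length trend alternative was chosen after seeing the data. Littermates did not deviate together in every pair (r across genes -0.09 to 0.42), so the litter block is an alternative. Some results of the gene lists are not reported here.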

Additional observations from a re-analysis of the deposited data

Results flagged for a closer look

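For 5 members every male differed from his sister one way in the 3 litters of GD60 and the opposite way in the 3 litters of GD90, lower and then higher. The log2 difference between the male and the female change, from edgeR's quasi-likelihood test of the interaction, was 1.29 for TET1, 2.34 for TET2, 0.90 for TET3, 0.70 for DNMT3B and 0.38 for MBD1. None passed (adjusted p = 0.175, 0.205, 0.210, 0.270 and 0.227, edgeR). The same pattern was seen in 15.2% of the 14622 genes with a mean of at least 1 CPM, and with the length trend removed the differences were 0.91, 1.99, 0.43, 0.32 and -0.10. In 27 sets of 6 libraries, a member at a gestation day, no library stood farther from the rest than Dixon's limit for 6 values allows.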

How the results depend on the processing

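Each count of members was recomputed under DESeq2, the likelihood ratio test, no TMM factors, 2 other filters, the length trend removed, only the samples compared, a replicate block of litters, and omission of a library or litter. Of 328 recomputed counts of members 293 were within 1.5 times the reported one. These include each reported 0 that stayed 0, and the rule takes 4 and 3 as alike, so a single lost call need not show in it. From GD45 to GD60 the 2 members called in litters became 1 without female GD45 replicate 18 (4.65% of all genes called). Single omissions thus gave 1 to 2, and from GD60 to GD90 they gave 2 to 4 (23.8% of all genes called at 2). In females from GD45 to GD60 the count was 1 without TMM factors and with only the libraries compared (6.19 and 7.55% of all genes called). It was 1 to 2 over single omissions. In males it was 1 and 0 under these settings (4.96 and 0.0% of all genes called), and 1 to 3 over single omissions. The 0 thus came from a fit in which no gene at all was called. For GD90 against GD60 in males, the count of 0 became 2 in DESeq2, 1 in the likelihood ratio test, 1 with no filter, 5 with the length trend removed and 4 with only the libraries compared (37.3, 36.6, 19.1, 36.9 and 47.4% of all genes called), and was 0 to 3 over single omissions. MBD1 there reversed, to -0.27 with the length trend removed. Males against females at GD90 gave 2 with only the libraries compared, and the interaction from GD60 to GD90 gave 1 in DESeq2, 1 in the likelihood ratio test and 0 to 3 over single omissions. Exon usage from GD45 to GD60 gave 0 to 1, with 0.976% of all genes called where it was 1. The cause was not tested. With the litter as a replicate block 0 members passed for each sex comparison and interaction, as in the fit without it. Depth limits TET2 and DNMT3B, at 30 to 419 and 73 to 395 counts a library.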

Other observations

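For each male the labels state which sex its neighbours in the uterine horn had. TET2 in males with a female on both sides was 1.98 CPM at GD45 (replicate 17) and 5.25 CPM at GD60 (replicate 16), below the 8.01 to 19.6 CPM of the other males of these days. At GD90 it was 15.9 and 18.8 CPM in males between females and 24.01 CPM in the male with a female and a male beside him. Replicates 17 and 16 each came from a litter of size 8, so litter and neighbours cannot be told apart. Their sisters had 12.1 CPM, the highest of the GD45 females, and 7.55 CPM, the lowest of the GD60 females. TET3 in replicate 16 was 67.4 CPM, between the other GD60 males (58.8 and 81.1 CPM). The slope on gene length was -0.19 in replicate 17 and -0.05 in replicate 16, and replicate 17 is the library that stands apart, so no test was made.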
